A study of Mus musculus with 6 samples.

Results

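The Hippo pathway and its transcriptional output were followed through 10 genes of the 54532 in the deposited table, a set listed by gene name. They are the kinases Lats1 and Lats2, the YAP-binding phosphatase Ptpn14, the angiomotin Amotl2, the co-activators Yap1 and Wwtr1 (TAZ), the DNA-binding partner Tead1 and the target genes Ctgf, Cyr61 and Ankrd1. The 6 RNA libraries came from haploid embryonic stem cells of mouse strain 129SV: 3 wild-type (WT) and 3 with the genotype field P53 -, called p53-deficient here. The words without p53 are used below as a short name for that group, and p53 protein was not measured. The sample titles write the second group as P53ki and the series design calls it a knockout, so how p53 was lost is not settled by the labels, and neither is whether each group is a single clone. Clone, culture and genotype therefore cannot be told apart, and since nothing says that the libraries came from separate cultures, p-values rest on a spread among libraries that may be technical only. Depth, as reads in listed genes, was 17065841 to 20331905 per WT library and 11536412 to 21218976 per p53-deficient library. Trp53, which encodes p53, was at 64.5, 69.8 and 69.6 FPKM (a fragment count divided by gene length in kilobases and scaled to the size of its library) in WT and at 9.71, 9.71 and 9.98 FPKM in the p53-deficient libraries, in the direction the labels give.

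In the Hippo pathway the MST kinases activate LATS1 and LATS2, which phosphorylate YAP and TAZ and so keep them in the cytoplasm for degradation. Unphosphorylated YAP and TAZ enter the nucleus, bind TEAD proteins and switch on genes such as Ctgf, Cyr61, Ankrd1 and Amotl2. Several of these targets, among them Lats2, Amotl2 and Ptpn14, in turn restrain YAP. Pathway activity is mainly set by phosphorylation and protein location, neither of which RNA levels measure. In early mouse embryos Hippo signalling, TEAD4 and YAP separate trophectoderm from inner cell mass, the source of embryonic stem cells, and p53 is known to be tied to the pathway through LATS2 and through PTPN14.

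Promoter sequence was read first, since the target genes are defined by TEAD binding. RefSeq promoter windows on GRCm38.p6 were found for 8 of the 10 genes, all except Ctgf and Tead1, and the 250 bases before each RefSeq start were searched for the TEAD hexamer GGAATG on both strands (CATTCC on the other strand). The hexamer was present in 6 of the 8 genes, Wwtr1 being counted once since its 2 overlapping windows hold the same site, against 12.6% of 32851 promoter windows of the same length, and it was not found in the windows of Lats1 or Lats2. The Lats2 windows lie inside the deposited gene, downstream of its start, so the bases before that start were not searched. A match is a description of the letters and not evidence of binding, and several of the genes were listed because they are known TEAD targets. The matches are shown with 12 bases on either side, 5′ to 3′ on the gene's strand, the hexamer in capitals. The Yap1 site is at chr9:8004720-8004749 on the minus strand, that of Wwtr1 at chr3:57576029-57576058 on the minus strand, and that of Cyr61 at chr3:145650071-145650100 on the minus strand. The 2 Ankrd1 sites are at chr19:36120037-36120066 and chr19:36119950-36119979 on the minus strand. The Amotl2 site is at chr9:102717727-102717756 and that of Ptpn14 at chr1:189728110-189728139, both on the plus strand.
Yap1: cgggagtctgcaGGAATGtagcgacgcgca
Wwtr1: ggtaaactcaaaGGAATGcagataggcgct
Cyr61: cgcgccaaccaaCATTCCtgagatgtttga
Ankrd1, farther site: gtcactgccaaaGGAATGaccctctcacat
Ankrd1, nearer site: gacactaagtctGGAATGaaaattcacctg
Amotl2: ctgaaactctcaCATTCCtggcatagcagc
Ptpn14: cctccccggacgCATTCCtggcccgcccag

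The hexamers began between 65 bases (Amotl2) and 210 bases (the farther Ankrd1 site) upstream of the RefSeq start. Amotl2's deposited gene model begins upstream of that RefSeq start, so its site lies inside the gene as counted. In the GENCODE gene annotation an Ankrd1 exon overlaps the Ankrd1 window. That annotation gives Ankrd1 2886 exon bases, against a deposited length of 1765, so its gene model is not settled. Ankrd1 was the gene with 2 matches in 1 window, which 1.02% of all windows have. In Cyr61, Amotl2 and Ptpn14 the letters TG follow CATTCC, so these 3 share the run CATTCCTG on the gene's strand. Yap1 holds the same run on the opposite strand, as CAGGAATG. The p53 decamer motif matched none of the 8 genes' windows, against 7.13% of all windows, and the CArG box of serum response factor matched none, against 1.47%. These windows hold none of those letters, which says nothing of sites elsewhere. The whole 250 bases are printed for Ptpn14, at chr1:189728018-189728267 on the plus strand, and Cyr61, at chr3:145649986-145650235 on the minus strand. Both are targets that carry the extended run and were called lower, Ptpn14 by more than Cyr61.
Ptpn14: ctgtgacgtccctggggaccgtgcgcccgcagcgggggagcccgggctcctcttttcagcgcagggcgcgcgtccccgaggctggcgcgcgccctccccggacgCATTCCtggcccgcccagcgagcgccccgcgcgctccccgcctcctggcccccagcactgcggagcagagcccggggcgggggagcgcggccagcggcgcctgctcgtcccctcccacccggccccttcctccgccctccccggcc
Cyr61: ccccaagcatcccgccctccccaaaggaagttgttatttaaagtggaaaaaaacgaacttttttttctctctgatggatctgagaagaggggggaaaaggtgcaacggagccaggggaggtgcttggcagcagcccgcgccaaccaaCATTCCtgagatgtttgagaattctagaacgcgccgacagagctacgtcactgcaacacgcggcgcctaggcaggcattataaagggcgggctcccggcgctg
The Cyr61 window holds TATAAA, the letters of a TATA box, 25 bases upstream of the start, which 7.59% of all windows have at any position. That of Ptpn14 has no such match.

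Of the 10 genes, 7 were lower and 0 higher in the p53-deficient libraries and 3 missed the threshold; this became 10 lower when libraries were scaled by the median log2 ratio and 9 after quantile normalization. The 7 were Ankrd1, Ptpn14, Ctgf, Wwtr1, Tead1, Cyr61 and Lats2, and the other 3 were Yap1, Lats1 and Amotl2. The comparison was broad, and the count is read against that: 66.5% of the 15144 genes tested were called, 35.3% higher and 31.3% lower. A gene was called at a limma adjusted p under 0.05, on log2(FPKM + 1), a scale that understates the change of low genes. All 10 passed the minimum mean of 0.5 FPKM, and none did so only through its WT level, the lowest p53-deficient mean being 1.51 FPKM, for Ankrd1. The median log2 difference was -0.58 over the 10 genes and 0.03 over all genes tested. In each of the 7 called genes the groups did not overlap, as in 71.4% of all genes tested, 33.7% in the lower direction and the rest in the higher. Of the 10 genes, 3 were called and fell at least 2-fold (Ankrd1, Ptpn14 and Ctgf), against 6.3% of all genes tested. Of the same 10, 2 were called lower and kept under 25% of their WT level (Ankrd1 and Ptpn14), against 5.14%.

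**Figure D1:**
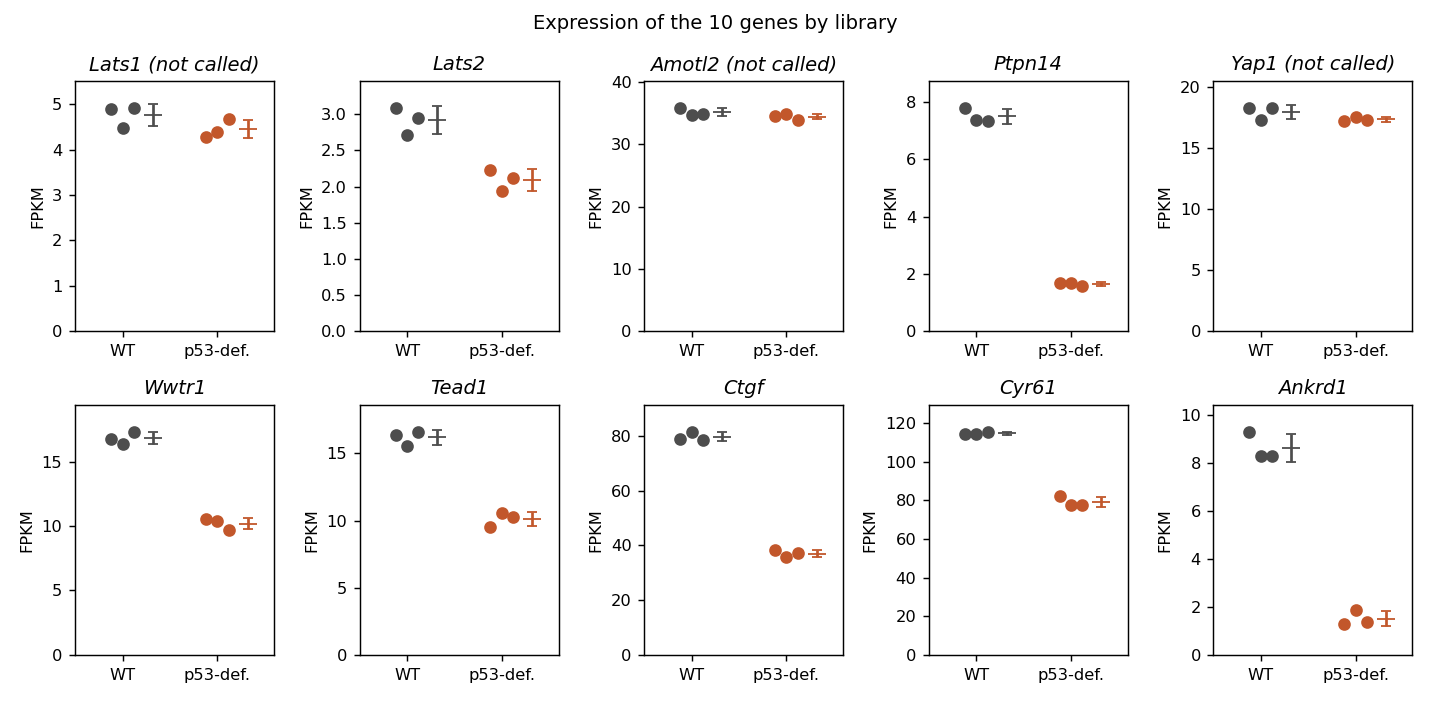
Level of each of the 10 genes in FPKM, 1 point per library, 3 WT and 3 p53-deficient, with bars for the mean and SD; each panel has its own axis from 0. The p53-deficient points lie below all WT points in 7 panels, and in those of Yap1, Lats1 and Amotl2 the groups overlap; these 3 genes also passed the test when libraries were scaled by the median log2 ratio.

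The LATS kinases phosphorylate YAP and TAZ directly. Lats1 (ENSMUSG00000040021, chr10:7681214-7716460, plus strand) was at 4.89, 4.48 and 4.92 FPKM in WT and at 4.29, 4.39 and 4.68 FPKM in the p53-deficient libraries. The groups overlapped, the highest p53-deficient library lying above the lowest WT one, and the log2 difference was -0.08 (SE 0.0506, limma adjusted p = 0.203). On the log2(FPKM + 1) scale its 95% interval ran from -0.20 to 0.04, so that a fall of more than 0.20 was outside it. Lats2 (ENSMUSG00000021959, chr14:57689662-57758388, minus strand) was at 3.09, 2.71 and 2.95 FPKM in WT and at 2.24, 1.94 and 2.11 FPKM without p53. All 3 p53-deficient libraries were below all WT libraries, and the mean fell from 2.92 ± 0.190 to 2.10 ± 0.151 FPKM (SD, n = 3 each), 71.8% of the WT level, a log2 difference of -0.34 (SE 0.0628, limma adjusted p = 0.00284). A near-identical gene, Gm49361, was listed at 0 in every library, so how reads were divided between the pair is uncertain. Within a library, Lats2 per Lats1 was 0.613 ± 0.0170 in WT and 0.472 ± 0.0437 in the p53-deficient libraries (SD, n = 3 each).

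Ptpn14 and Amotl2 encode proteins that hold YAP outside the nucleus, and both are YAP/TAZ targets themselves. Ptpn14 (ENSMUSG00000026604, chr1:189728268-189876695, plus strand), a non-receptor tyrosine phosphatase and known p53 target, was at 7.80, 7.37 and 7.34 FPKM in WT and at 1.69, 1.70 and 1.58 FPKM in the p53-deficient libraries. The groups were far apart and each was tight: 7.50 ± 0.258 against 1.66 ± 0.0663 FPKM (SD, n = 3 each). Ptpn14 stood at 22.1% of its WT level, 4.53-fold lower, with a log2 difference of -1.68 (SE 0.0453, limma adjusted p = 5.00e-07). Only 2.22% of the genes tested had a log2 difference as low or lower. Amotl2 (ENSMUSG00000032531, chr9:102716672-102733418, plus strand), an angiomotin of cell junctions, was at 35.8, 34.7 and 34.8 FPKM in WT and at 34.6, 34.9 and 33.9 FPKM without p53. Its groups overlapped, the log2 difference was -0.03 (SE 0.0246, limma adjusted p = 0.377), and the 95% interval ran from -0.09 to 0.03. From 2534 to 4573 reads per library lay behind Amotl2, and 263 to 2028 behind Ptpn14. Ptpn14 per Lats2, a ratio within each library, was 2.52, 2.71 and 2.49 in WT and 0.757, 0.876 and 0.748 without p53, so the more abundant of the 2 differed between the groups.

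Yap1 and Wwtr1 encode the paralogous co-activators YAP and TAZ. Yap1 (ENSMUSG00000053110, chr9:7931999-8004596, minus strand) was at 18.3, 17.3 and 18.2 FPKM in WT and at 17.2, 17.5 and 17.3 FPKM in the p53-deficient libraries. The groups overlapped, and the mean was 96.7% of the WT level, a log2 difference of -0.05 (SE 0.0308, limma adjusted p = 0.234) with a 95% interval from -0.12 to 0.03. Wwtr1 (ENSMUSG00000027803, chr3:57455649-57575910, minus strand) was at 16.8, 16.4 and 17.3 FPKM in WT and at 10.5, 10.4 and 9.69 FPKM without p53. Here all p53-deficient libraries were below all WT libraries, at 60.6% of the WT level, with a log2 difference of -0.67 (SE 0.0401, limma adjusted p = 1.40e-05). Yap1 was above Wwtr1 in each library, by little in WT and by more without p53: Wwtr1 per Yap1 was 0.918, 0.948 and 0.950 in WT and 0.613, 0.590 and 0.561 without p53. Their summed FPKM was 34.7 ± 0.992 in WT and 27.5 ± 0.506 in the p53-deficient libraries (SD, n = 3 each).

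TEAD proteins carry YAP and TAZ to DNA. Tead1 (ENSMUSG00000055320, chr7:112679318-112906807, plus strand) was at 16.3, 15.6 and 16.6 FPKM in WT and at 9.53, 10.6 and 10.3 FPKM without p53. The groups did not overlap, and the mean fell from 16.2 ± 0.538 to 10.1 ± 0.540 FPKM (SD, n = 3 each), 62.6% of the WT level, with a log2 difference of -0.63 (SE 0.0455, limma adjusted p = 3.39e-05). Tead4, the family member needed for trophectoderm, was at 9.85 ± 0.653 FPKM in WT and 18.7 ± 0.109 FPKM without p53 (SD, n = 3 each), a called rise of 0.86 on the log2 scale. Tead2 differed by 0.21, called higher. Tead3 went from 1.57 ± 0.163 to 1.33 ± 0.0587 FPKM (SD, n = 3 each), a difference of -0.14 that was not called (limma adjusted p = 0.113), although every p53-deficient library was below every WT library; it was called with median-ratio scaling (adjusted p = 0.0419) and with voom weights on rebuilt reads (0.0287). Tead1 thus made up 34.1% ± 0.820 of the summed TEAD FPKM in WT and 19.1% ± 0.893 in the p53-deficient libraries, and Tead4 20.8% ± 1.06 and 35.1% ± 0.497 (SD, n = 3 each). Tead2 held 41.8% ± 1.07 and 43.4% ± 1.03, the largest share of the 4 genes in both groups. Summed TEAD FPKM was 47.4 ± 0.966 in WT and 53.2 ± 0.548 without p53 (SD, n = 3 each).

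**Figure D2:**
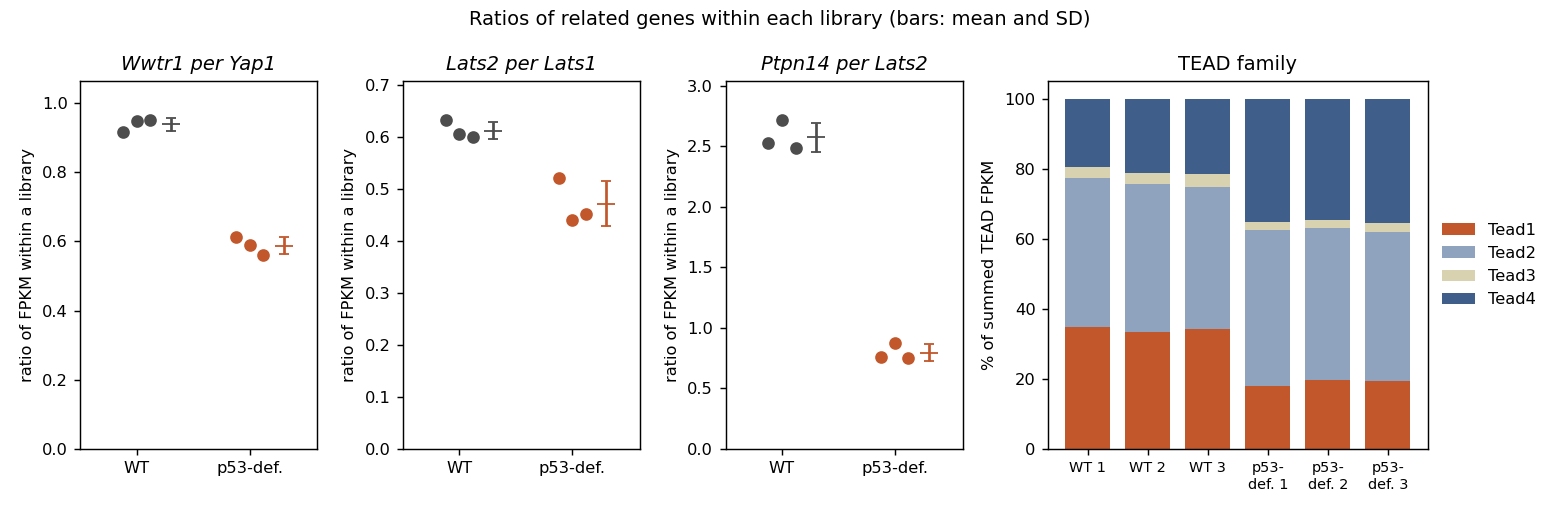
Left 3 panels: ratios of FPKM between related genes within each library (no unit), 1 point per library with the mean and SD of 3; right panel: each TEAD gene's percent of summed TEAD FPKM in each library. The p53-deficient ratios lie below all WT ratios in each of the 3 panels, and the Tead1 share is near 34.1% in WT and 19.1% without p53.

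Ctgf, Cyr61 and Ankrd1, which serve as standard readouts of YAP and TAZ, were all lower, by different amounts. Amotl2, named above as a target beside them, was not called, at 98.1% of WT. Ctgf (now Ccn2, ENSMUSG00000019997, chr10:24595442-24598683, plus strand), which encodes a secreted matricellular protein, was at 78.9, 81.7 and 78.6 FPKM in WT and at 38.2, 35.7 and 37.1 FPKM in the p53-deficient libraries. Every p53-deficient library was below every WT library, and the level was 46.4% of WT, a log2 difference of -1.09 (SE 0.0315, limma adjusted p = 6.50e-07). Cyr61 (now Ccn1, ENSMUSG00000028195, chr3:145646976-145649981, minus strand), its relative among the CCN proteins, was at 114, 115 and 116 FPKM in WT and at 82.4, 77.9 and 77.7 FPKM without p53. Its groups did not overlap either, and the level was 69.0% of WT, a log2 difference of -0.53 (SE 0.0284, limma adjusted p = 8.80e-06). Cyr61 was the most abundant of the 10 genes in both groups and remained at the 95.2 percentile of all tested genes' p53-deficient levels, against 97.1 in WT.

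Ankrd1 (ENSMUSG00000024803, chr19:36111965-36119844, minus strand), which encodes an ankyrin repeat protein of muscle and nucleus, fell the most of the 10. It was at 9.32, 8.28 and 8.31 FPKM in WT and at 1.29, 1.86 and 1.38 FPKM in the p53-deficient libraries. No p53-deficient library came near the WT range, and the mean fell from 8.64 ± 0.591 to 1.51 ± 0.307 FPKM (SD, n = 3 each). The level was 17.5% of WT, 5.71-fold lower, with a log2 difference of -1.94 (SE 0.0948, limma adjusted p = 5.85e-06). Few reads lay behind the low values: 284, 288 and 302 reads for WT against 48, 38 and 43 reads without p53. At 38 reads counting alone gives a coefficient of variation of 16.2%, beside the 20.3% seen among the p53-deficient libraries, so the libraries' order there is not resolved. From the reads pooled by group the level was 16.7% of WT (95% interval 13.7% to 20.1%, exact binomial, counting error only). The targets did not keep their proportions: Ctgf per Cyr61 was 0.694 ± 0.0165 in WT and 0.467 ± 0.00995 without p53, and Ankrd1 per Cyr61 0.0752 ± 0.00551 and 0.0191 ± 0.00428 (SD, n = 3 each). Beside the sequences shown above, the window with 2 hexamers belonged to the gene with the largest fall, a description of 1 gene. The 3 genes with CATTCCTG on the gene's strand stood at 22.1% (Ptpn14), 69.0% (Cyr61) and 98.1% (Amotl2) of WT. Yap1, with that run on the opposite strand, stood at 96.7%.

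Altogether 15 ratios, shares and sums within libraries were compared. In 14 of the 15 the groups did not overlap, which gives an exact two-sided permutation p = 0.1, the smallest that 3 libraries against 3 can give (0.107 adjusted over the 15). The exception was the Tead2 share, with an exact permutation p = 0.2. Among all genes tested 71.4% did not overlap either. Several of the ratios share genes, and some of their genes were named after values were seen. The 14 are therefore a description and not independent results.

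**Figure D3:**
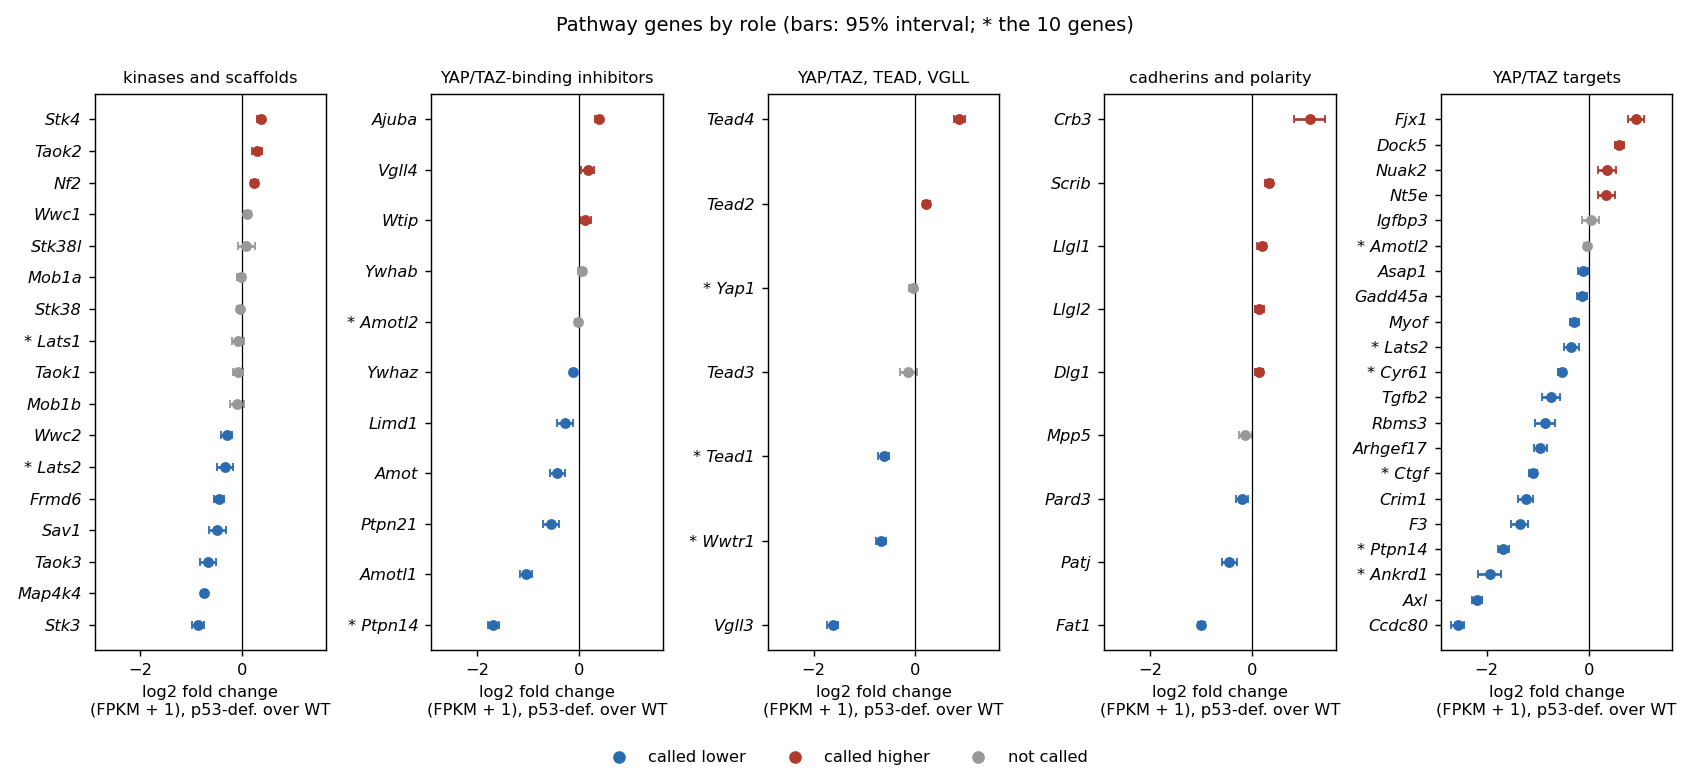
Log2 difference, p53-deficient minus WT, on the log2(FPKM + 1) scale with 95% interval bars, 1 point per tested gene, for 4 groups of pathway genes by role and for the YAP/TAZ targets; stars mark the 10 genes and colours show genes called lower, called higher or not called by limma. Points lie on both sides of 0 in each of the groups, from -2.57 (Ccdc80, a target) to 1.13 (Crb3), with fewer pathway genes higher (9, not 13) when libraries were scaled by the median log2 ratio.

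Among 37 tested pathway genes outside the 10, 13 were higher, 15 lower and 9 not called, with a median log2 difference of -0.09, beside 35.3% higher and 31.3% lower among all genes tested. With the 7 of the 10 that are pathway components, 44 of 49 listed genes were tested, 13 were higher, 19 lower and 12 not called; with libraries scaled by the median log2 ratio the split was 9 higher and 28 lower. Among the 17 kinases and scaffolds, 3 were higher and 7 lower. Stk3 (MST2) fell from 5.49 ± 0.258 to 2.54 ± 0.0886 FPKM (SD, n = 3 each), and its paralog Stk4 (MST1) rose from 14.4 to 18.8 FPKM, so Stk3 per Stk4 was 0.382 ± 0.0165 in WT and 0.135 ± 0.00284 without p53 (SD, n = 3 each). Map4k4, an MST-related kinase that can act on LATS, fell from 40.0 ± 0.0723 to 23.4 ± 0.217 FPKM (SD, n = 3 each). Taok3 fell by 0.67 (to 43.4% of WT) and Sav1, the MST scaffold, by 0.49 (to 65.9%) on the log2 scale. Mob1a, the LATS co-activator, differed by -0.02 (limma adjusted p = 0.571), and was called lower with median-ratio scaling (-0.12, 0.0281) and with quantile normalization (-0.12, 0.0254).

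Among the 11 genes of proteins that bind and hold back YAP and TAZ, 3 were higher, 6 were lower and 2 did not pass. This count and those of the next lists stand beside 35.3% higher and 31.3% lower among all genes tested. Ptpn14 had the largest difference of them. Amotl1 fell from 6.61 ± 0.113 to 2.70 ± 0.159 FPKM (SD, n = 3 each), while Amotl2 did not pass, and Amotl1 per Amotl2 was 0.188 ± 0.00163 in WT and 0.0784 ± 0.00463 without p53. Ptpn21, the close relative of Ptpn14, fell by 0.56 (to 59.8% of WT) and Amot by 0.42 (to 60.1%) on the log2 scale. The 14-3-3 gene Ywhab differed by 0.06 (limma adjusted p = 0.122), by -0.04 with median-ratio scaling or quantile normalization, and was called higher without p53-deficient replicate 2 (0.08, adjusted p = 0.0186). Of the 9 genes for YAP, TAZ, TEAD and VGLL proteins 7 were tested, with 2 higher and 3 lower. Vgll3, whose product competes for TEAD, fell from 7.89 ± 0.242 to 1.88 ± 0.0583 FPKM (SD, n = 3 each), 23.9% of WT and close to the share that Ptpn14 kept. Of the cadherin and polarity genes 9 were tested, 5 higher and 3 lower. The polarity gene Crb3 rose from 1.08 ± 0.310 to 3.55 ± 0.438 FPKM (SD, n = 3 each), and Scrib rose by 0.33 on the log2 scale. The giant cadherin Fat1 fell from 23.4 to 11.2 FPKM, 47.8% of WT. Patj fell from 1.09 to 0.536 FPKM, 49.2% of WT, which was 0.44 on the log2 scale. Mpp5, of the same apical complex as Patj, differed by -0.13 (limma adjusted p = 0.0606). It was called lower in 4 alternatives, among them median-ratio scaling (-0.21, 0.00919).

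In a list of 22 YAP/TAZ target genes, which holds 6 of the 10 genes, 21 were tested, of which 15 were lower, 4 higher and 2 not called, with a median log2 difference of -0.53 beside 31.3% lower, 35.3% higher and a median of 0.03 over all genes tested. Without those 6, 10 of 15 were lower and 4 higher. Tgfb2 and Rbms3 reached the minimum mean only through WT and so could only be called lower. Leaving them out, 8 of these 13 were lower and 4 higher, with a median of -0.13, and over the whole list 13 of 19 were lower, with a median of -0.34. The matrix gene Ccdc80 fell from 20.7 ± 0.501 to 2.67 ± 0.236 FPKM and the receptor kinase Axl from 19.3 ± 0.364 to 3.46 ± 0.200 FPKM (SD, n = 3 each), 12.9% and 17.9% of WT beside the 17.5% of Ankrd1. The 4 that rose, named after their values were seen, were Fjx1 (2.42 to 5.47 FPKM), Dock5 (5.60 to 9.03), Nuak2 (1.56 to 2.28) and Nt5e (0.920 to 1.44). Lats2 and Ptpn14 are in this list as well as among the inhibitors, so the 2 lists share genes.

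Marker genes of other cells differed between the groups too, in a comparison where 31.3% of all genes tested were lower and 35.3% higher. Of 20 fibroblast markers, 17 were tested and all 17 were lower, with a median log2 difference of -2.24; their summed level was 1329 to 1342 FPKM in WT and 241 to 262 FPKM without p53, and S100a4 was at 0 in at least 1 library. Fewer cells of a type and less RNA per cell cannot be told apart in such bulk libraries. The 17 tested markers kept 9.08% to 31.4% of their WT level, a range that holds Ankrd1 and Ptpn14, and the other 8 genes lay above it. Of the untested markers Tagln was at 35.2% of WT, from 59 and 19 pooled reads. Expression in fibroblasts was not measured for the genes called lower or for those that did not pass, such as Yap1 (96.7% of WT) and Amotl2 (98.1%). Pooled reads of 4 Y-linked genes numbered 1161 for WT and 103 for the other group, a level between 8.11% and 12.3% of WT once scaled for depth (95% interval, exact binomial, counting error only). The part of these differences in the 7 lower genes was not tested. A list of 8 p53 targets, which leaves out Ptpn14, kept 1.65% to 27.8% of the WT level, and Ankrd1 and Ptpn14 fell within that range. The lowest target, Eda2r, reached the minimum mean only through WT (23.5 against 0.387 FPKM) and so could only be called lower. Without Eda2r the range began at 7.66% (Phlda3) and still held Ankrd1 and Ptpn14.

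**Figure D4:**
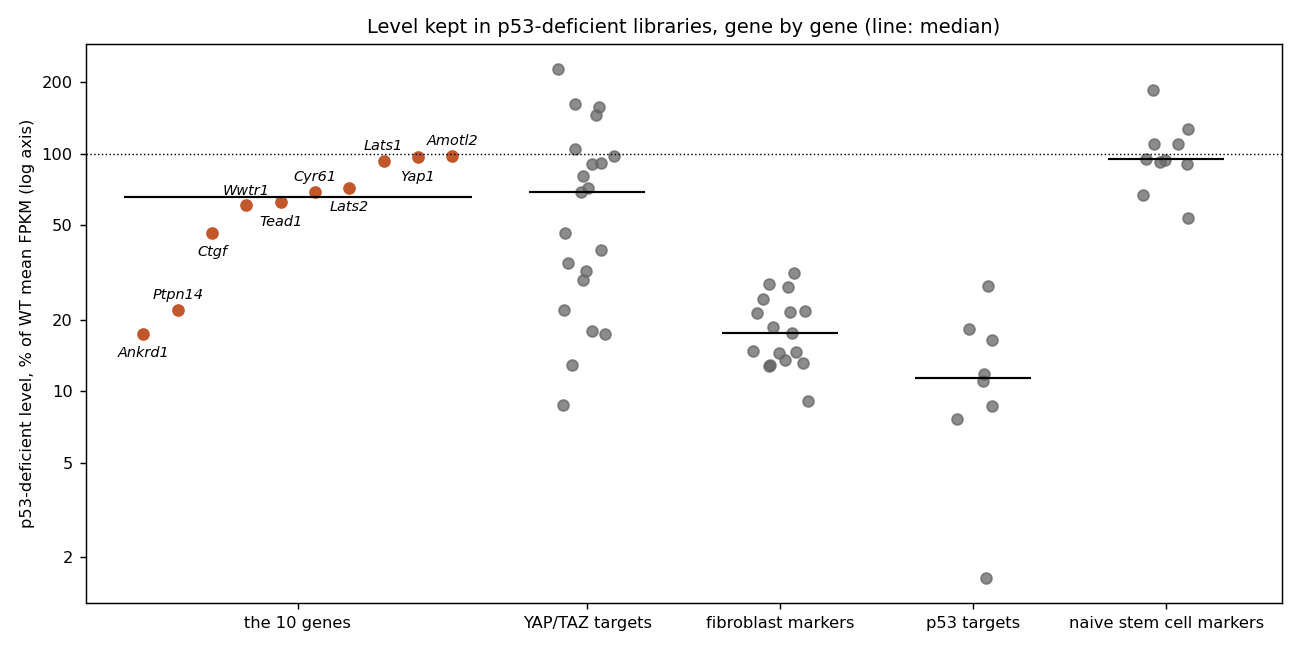
P53-deficient level as a percent of the WT mean FPKM on a log axis, 1 point per gene of mean FPKM at least 0.5, for the 10 genes and 4 lists, with a line at each median. Ankrd1 (17.5%) and Ptpn14 (22.1%) lie within the range of the 17 tested fibroblast markers (9.08% to 31.4%), and the other 8 genes lie above it, up to 98.1% for Amotl2.

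The labelled cell type showed in both groups. All 10 naive stem cell markers had a p53-deficient mean of at least 36.6 FPKM, and 4 were higher, 5 lower and 1 not called, with a median log2 difference of -0.08. Among all genes tested 35.3% were higher and 31.3% lower, beside which this count and those below are read. Dppa5a differed the most, from 2007 ± 30.0 to 1075 ± 35.1 FPKM (SD, n = 3 each), a fall of 0.90 on the log2 scale. Esrrb rose by 0.88 and Tfcp2l1 by 0.34, Nanog fell by 0.57, and Sox2 differed by -0.07, not called but called lower with median-ratio scaling (-0.17, limma adjusted p = 0.00485). Of the trophoblast markers 6 were tested, 5 were higher and 0 lower, by 0.20 (Tfap2c) to 0.85 (Krt18), and Gata3 was not called at -0.06. Cdx2, among the 5, lost its call in 8 alternatives. The untested Hand1 was at 76.2% of WT (37 and 22 pooled reads) and Elf5 at 312% (7 and 20), each with overlapping groups. All 4 tested markers of primitive endoderm were lower, Gata6 having reached the minimum mean only through WT (0.992 against 0.152 FPKM). Of that list's untested genes Sox7 was higher without overlap (0.291 against 0.656 FPKM, from 55 and 107 pooled reads), and Sox17 and Foxa2 were at 0 in at least 1 library.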

How the data were processed

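PolyA RNA was sequenced in 3 WT and 3 p53-deficient haploid embryonic stem cell libraries. The authors deposited 1 table of FPKM for all genes. HISAT2 2.0.5, featureCounts 1.5.0-p3 and the build mm10 are listed, per the submitters' processing notes, without their roles. Strand use in counting and the treatment of reads with several matches are not given in the sources used here. Table columns were matched to samples by group and number in the sample titles. For the second group the columns read P53_KO and the titles P53ki, so that match rests on the shared p53 name and the number. Reads per gene were rebuilt from FPKM and gene length, and 100% of the values came out whole (tolerance 0.001). The implied library totals were 99.1% to 101% of the rebuilt reads.

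Genes with a mean of at least 0.5 FPKM entered a two-sided limma fit with a variance trend on log2(FPKM + 1) (limma 3.58.1, R 4.3.3), with Benjamini-Hochberg adjustment over 15144 genes. Ratios were compared with exact permutation tests in SciPy 1.17.1. In data simulated for this comparison over 15144 genes, 36%, 72%, 82% and 90% of genes changed 1.25-, 1.5-, 2- and 4-fold were recovered, and 7 unchanged genes were called. Only 200 genes were changed there, whereas 66.5% were called in the data, and a single replicate spread served all genes. Recovery and false calls in the data themselves may therefore differ. Coordinates are the deposited ones, and promoter sequences are RefSeq's for GRCm38.p6. Near-identical genes were looked for with BLAST+ 2.17.0, and no exon of the 10 genes overlapped another expressed gene. The 10 genes and all lists were chosen with earlier results of these data known. All 10 were named in full, and of each further list up to 4 called genes with the largest change and the most abundant gene that did not pass. Others (Stk4, Tead2, Tead3, Fjx1, Dock5, Nuak2, Nt5e) were named after their values were seen. Alternatives were other pseudocounts, filters, scalings, variance models, a replicate block and leaving out each library.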

Additional observations from a re-analysis of the deposited data

How the results depend on the processing

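The 7 genes called lower were called lower in every alternative in which they were tested, and none of the 10 genes was called higher in any. Scaling by the median log2 ratio moved the median of all genes from 0.03 to -0.05 and called Yap1 (-0.14, limma adjusted p = 0.00737), Lats1 (-0.16, 0.0308) and Amotl2 (-0.12, 0.00402) lower as well. Quantile normalization called Yap1 (-0.12, 0.0151) and Amotl2 (-0.12, 0.00368). Whether these 3 differed thus depends on the scaling. With a minimum mean of 5 FPKM 7 of the 10 were tested and 5 called, 5944 of 7752 genes were called, 2268 of them lower, and 7 of 27 pathway genes and 9 of 11 YAP/TAZ targets were lower, with 1 target higher; fewer genes were tested there. Without 1 library at a time, genes called ranged from 9193 to 9746, the lower ones from 4268 to 4635, lower pathway genes from 18 to 21 and lower targets from 12 to 14, and 7 of the 10 genes were lower each time. Mob1a ranged from -0.045 to 0.0097 without 1 p53-deficient library, Ywhab turned to -0.041 with median-ratio scaling and -0.043 with quantile normalization, and Gata3 to 0.056 with quantile normalization and 0.028 without WT replicate 1. None of these reversed values was called, and the cause was not tested. Both scalings called Mob1a lower (-0.12 each), and without p53-deficient replicate 2 Ywhab was called higher (0.08). With voom weights on the rebuilt reads 10480 genes and 7 of the 10 were called, with 24 pathway genes lower. Libraries that share a number did not deviate together (r = -0.03, 0.01 and 0.01), so they share only a number. With a replicate block 7 of the 10 genes were lower and 9766 genes were called, with 12 pathway genes higher and 20 lower. Depth limits Ankrd1, at 38 to 48 reads per p53-deficient library, more than the other 9 genes.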

Other observations

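Some pathway and target genes were too low to be tested. The atypical cadherins Fat4 and Dchs1, which receive signals at cell contacts, the TEAD cofactor genes Vgll1 and Vgll2 and the target Foxf2 had a mean under 0.5 FPKM, and Vgll2 and Foxf2 were at 0 in at least 1 library.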
